A study of Mus musculus with 250 samples.

Results

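The nuclear genes of the mitochondrial respiratory chain and ATP synthase were examined in 5 tissues of mice with Her2/Neu-driven breast tumors. Members were all genes whose symbol begins with Nduf, Uqcr, Sdha to Sdhd, Cox4 to Cox8 or Atp5, except Cox7a1 and Cox8b, as named by the probe sets of the array that carry a single gene symbol. This rule uses names and no measured value, and it gave 92 of 18194 measured genes, covered by 183 probe sets. The Sdha prefix also takes in the assembly factors Sdhaf1 to Sdhaf4. Genes of the same machinery with other names, such as Cyc1 for cytochrome c1, are not members.

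The respiratory chain sits in the inner mitochondrial membrane. Complex I takes electrons from NADH and complex II, succinate dehydrogenase, takes them from succinate in the citric acid cycle. Ubiquinone carries them to complex III, cytochrome c carries them to complex IV, and the proton gradient built on the way drives ATP synthase. Most subunits are encoded in the nucleus and studied here, whereas the mitochondrial genome encodes the others. Brown fat, heart and skeletal muscle are rich in these complexes, and several complex IV subunits exist as isoforms used in particular tissues.

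Whole-tissue RNA from female FVB mice was hybridised to 250 Affymetrix arrays. Thymus, breast, blood cells, spleen and liver each have 25 arrays of tumor-bearing mice and 25 of control mice. Mice of the tumor-bearing group carried 2 transgenes, MMTV-rtTA and TetO-NeuNT. In this system doxycycline turns on an activated Neu (rat Erbb2) in cells where the MMTV promoter is active, mainly mammary epithelium. Control mice were littermates with TetO-NeuNT and no rtTA. Each mouse was paired by its label with a mouse of the other group matched for age and cage. Both groups drank doxycycline at 2 mg/mL with 5% sucrose from week 8, and tissue was taken when the tumor measured 1 cm. Doxycycline was therefore common to all arrays, and its own effect on these genes cannot be seen in this design. Breast of tumor-bearing mice was the whole tissue with its tumor, set against whole breast of controls, and blood was taken without its plasma.

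Values are log2 intensities, and changes are tumor-bearing minus matched control, ± the SE over pairs. Levels of single genes are compared between arrays of 1 tissue and not with those of other genes, although a count among genes bright on the array, which rests on probe set intensity, is given as a reference. A gene was called higher or lower at an adjusted p under 0.05 in limma, with p-values adjusted by Benjamini and Hochberg's method over the 18194 genes in each tissue. Members that mark the end of a range, the c subunit genes and genes such as Cs, Tfam and Ppargc1a were named after their values were seen. In bulk tissue, fewer cells of a type and less RNA per cell cannot be told apart.

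Of the 250 arrays, 16 had a low correlation with the other arrays of their tissue and group for that tissue, and they are called outlying here. The rule is relative to the spread in each tissue. The liver tumor-bearing array of pair 15 was outlying at 0.980, while arrays kept in blood went down to 0.915. The 16 outlying arrays lie in 5 of the 25 liver pairs, 3 breast pairs, 3 spleen pairs, 2 blood pairs and 2 thymus pairs. Some went against their tissue label. The liver control array of pair 2 correlated at 0.34 with the others, and its mean over the hepatocyte markers was 10.9 against a tissue median of 13.5. The spleen control arrays of pairs 13 and 21 had B cell marker means of 6.42 and 6.56 against 11.6, and the spleen tumor-bearing array of pair 21 had a T cell and thymocyte marker mean of 12.0 against 7.88. The same array had an adipocyte marker mean of 11.2 against 6.73. The thymus control array of pair 11 had a T cell and thymocyte marker mean of 6.79 against 12.4. The counts of called members are therefore given with all pairs and without the outlying pairs, and other values are over all pairs where nothing else is said. The sample identifiers in the labels fall into 2 series, of 10 and 15 pairs, and main counts are also given within each.

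Promoters of 4 genes are shown because these genes carry the main patterns: Sdhb fell in each of the 25 breast pairs, Ndufs4 was the liver gene called over all pairs, Atp5g3 hardly moved in breast, and Cox6b2 rose most in spleen. RefSeq promoters (GRCm38.p6), from 250 bases before to 50 after the annotated start, were matched to 76 of the 92 genes and searched on both strands for 4 motifs of factors known from mitochondrial genes. These were the NRF1 motif (GCGCA, any base, then GCGC), the ETS (GABP) motif CCGGAAG, the YY1 motif AAGATGGC and the ERR motif AAGGTCA. Capitals mark every match, and matches of different motifs may overlap.
Sdhb, chr4:140961021-140961320, + strand: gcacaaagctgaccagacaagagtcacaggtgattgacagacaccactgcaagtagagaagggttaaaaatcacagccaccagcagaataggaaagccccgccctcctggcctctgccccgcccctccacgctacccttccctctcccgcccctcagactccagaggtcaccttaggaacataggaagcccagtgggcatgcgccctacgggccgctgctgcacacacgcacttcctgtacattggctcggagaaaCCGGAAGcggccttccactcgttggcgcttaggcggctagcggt
Ndufs4, chr13:114388045-114388344, - strand: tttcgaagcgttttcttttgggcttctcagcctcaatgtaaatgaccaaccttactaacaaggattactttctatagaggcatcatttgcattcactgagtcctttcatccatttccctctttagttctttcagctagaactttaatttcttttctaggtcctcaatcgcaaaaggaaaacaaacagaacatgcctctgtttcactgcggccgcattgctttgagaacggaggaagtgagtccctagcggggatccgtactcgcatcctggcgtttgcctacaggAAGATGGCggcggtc
Atp5g3, chr2:73911277-73911576, - strand: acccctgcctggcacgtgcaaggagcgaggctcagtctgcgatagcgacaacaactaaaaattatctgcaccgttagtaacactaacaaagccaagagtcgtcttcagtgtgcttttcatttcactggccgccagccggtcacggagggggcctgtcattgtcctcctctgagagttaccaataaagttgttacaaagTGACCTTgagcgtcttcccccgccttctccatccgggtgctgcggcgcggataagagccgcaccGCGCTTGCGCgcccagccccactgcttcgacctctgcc
Cox6b2, chr7:4753045-4753344, - strand: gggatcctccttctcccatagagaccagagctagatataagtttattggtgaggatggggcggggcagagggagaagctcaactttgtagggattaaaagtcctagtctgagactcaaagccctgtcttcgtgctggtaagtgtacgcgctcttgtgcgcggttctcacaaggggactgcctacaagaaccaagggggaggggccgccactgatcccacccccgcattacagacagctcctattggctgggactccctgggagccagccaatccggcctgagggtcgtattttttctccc
The Sdhb promoter held 1 ETS match, that of Ndufs4 1 YY1 match close to its downstream end, that of Atp5g3 an ERR match and an NRF1 match, and that of Cox6b2 none of the 4. Among the members with a promoter, 19 of 76 (25.0%) held the NRF1 motif, against 8.63% of 14369 genes with a promoter. The shares were 28.9% against 15% for the ETS motif, 13.2% against 4.09% for the YY1 motif and 10.5% against 4.61% for the ERR motif. A match describes letters in this window and not binding.

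In breast, nearly the whole machinery was lower in tumor-bearing mice. Of 92 genes, 83 fell, 1 rose and 8 were not called, where 32.3% of all genes fell and 30.0% rose. The median change was -0.65 over the members and -0.03 over all genes. Without the 3 outlying pairs 85 members fell (35.8% of all genes) with a median of -0.74. Of the members 72 were lower in each of the 22 remaining pairs, a count for which no share over all genes is given. Other genes in the top 10% of breast levels, where 71 of the 92 genes lie, had a median of 0.15, with 49.2% higher and 28.7% lower.

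The complexes are described one by one, and differences in size between them were not tested. The 4 succinate dehydrogenase subunits fell, and the median change was -1.17. The iron-sulfur subunit gene Sdhb lay between 11.53 and 13.44 in the control arrays (median 12.92) and between 10.49 and 12.39 in the tumor-bearing arrays (median 11.15). Each tumor-bearing mouse lay below its matched control, and without the outlying pairs the groups do not overlap. The change was -1.69 ± 0.12, adjusted p = 3.5e-11, lower in 25 of 25 pairs. Sdhd, a membrane anchor, changed by -1.20 ± 0.10, adjusted p = 2.4e-10, Sdha, the flavoprotein that oxidises succinate, by -1.15 ± 0.10, adjusted p = 4.06e-10, and Sdhc, the other anchor, by -0.84 ± 0.09, adjusted p = 8.73e-09. The 4 assembly factors of complex II fell too, with a median of -0.53. Among them Sdhaf3, which helps mature the iron-sulfur subunit, changed by -0.99 ± 0.09, adjusted p = 4.51e-10, and Sdhaf2, which aids attachment of FAD to Sdha, by -0.19 ± 0.08, adjusted p = 0.0316.

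In complex I, all 6 core subunits fell with a median of -1.24. Ndufs1, the large iron-sulfur subunit of the NADH-oxidising arm, lay between 9.63 and 12.15 in the control arrays (median 11.48) and between 9.25 and 10.79 in the tumor-bearing arrays (median 9.66). The 2 lowest control values and the highest tumor-bearing value were from outlying pairs, and without these the groups do not overlap. Its change was -1.66 ± 0.13, adjusted p = 7.13e-11, lower in 24 of 25 pairs. The others ranged from -1.40 ± 0.11 for Ndufs7 to -0.68 ± 0.09 for Ndufs8, both in the arm that passes electrons to ubiquinone. All 28 accessory subunits fell, with a median of -0.86, from -1.28 ± 0.11 for Ndufv3 to -0.15 ± 0.04 for Ndufc2. Of the 8 assembly factors 7 fell, led by Ndufaf6 (-1.40 ± 0.12), and the assembly chaperone Ndufaf2 was not called at 0.01 ± 0.07, adjusted p = 0.946.

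In complex III all 8 genes fell, with a median of -1.12. Uqcrq, a small subunit, lay between 11.02 and 12.91 in the control arrays (median 12.46) and between 9.92 and 12.02 in the tumor-bearing arrays (median 10.75). The highest tumor-bearing value and the 2 lowest control values were from outlying pairs, and without these the groups do not overlap. Its change was -1.60 ± 0.14, adjusted p = 2.64e-10, lower in 24 of 25 pairs. The core proteins Uqcrc1 (-1.34 ± 0.11) and Uqcrc2 (-1.07 ± 0.09) and the Rieske iron-sulfur protein gene Uqcrfs1 (-1.17 ± 0.11) fell as well, and the smallest change was that of Uqcrb (-0.25 ± 0.05). The probe set used for Uqcrq is one that matches several transcripts, and its other 3 probe sets, with mean levels of 4.22 to 5.63, changed by -0.22 to -0.06.

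**Figure D1:**
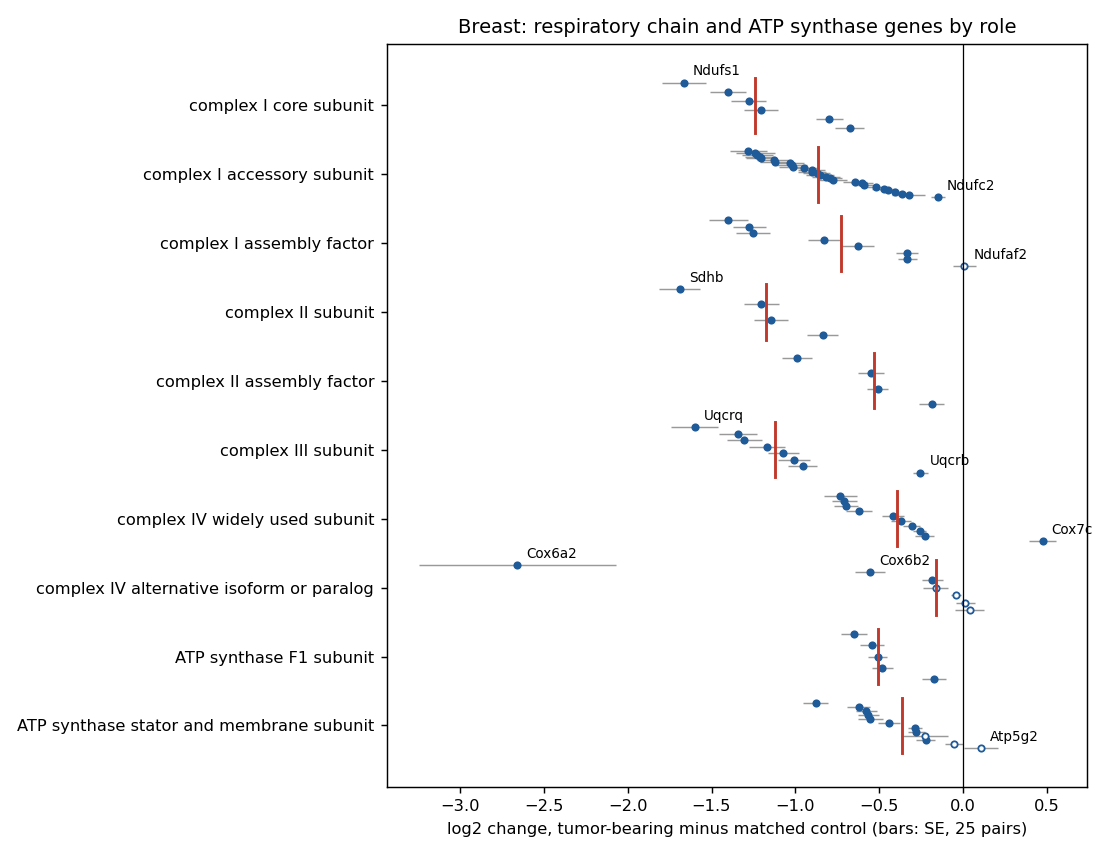
Log2 change of the 92 genes in breast, one point per gene with its SE over 25 pairs, grouped by role. Filled points passed the adjusted p of 0.05, open points did not, and the red bars are role medians, which run from -1.24 in the complex I core to -0.16 among the complex IV isoforms.

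The role medians moved further from 0 in each of these complexes when the outlying pairs were left out. They were -1.38 for the complex I core, -0.98 for its accessory subunits, -1.32 for complex II, -1.26 for complex III, -0.47 for the widely used complex IV subunits, -0.59 for F1 and -0.44 for the stator and membrane part. Sdha, Sdhc and Sdhd were then at -1.30 ± 0.07, -0.96 ± 0.07 and -1.35 ± 0.08.

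Complex IV and ATP synthase had smaller median changes. Of the 10 widely used complex IV subunits 9 fell, with a median of -0.39, from -0.73 ± 0.10 for Cox8a to -0.23 ± 0.05 for Cox6a1. The 5 subunits of the catalytic F1 part of ATP synthase fell with a median of -0.51, among them the catalytic beta subunit gene Atp5b (-0.51 ± 0.06). Of the 12 stator and membrane subunits 9 fell (median -0.37), from -0.88 ± 0.07 for Atp5k. The 3 genes not called all encode the same mature c subunit of the rotor ring. Atp5g1 changed by -0.23 ± 0.14, adjusted p = 0.16, Atp5g2 by 0.11 ± 0.10, adjusted p = 0.371 and Atp5g3 by -0.05 ± 0.05, adjusted p = 0.417. Atp5g3 lay between 12.16 and 13.67 in the control arrays (median 13.45) and between 13.21 and 13.48 in the tumor-bearing arrays (median 13.36), and 1 control array of an outlying pair was far below the rest. Without the outlying pairs Atp5g3 was called lower, at -0.11 ± 0.03, and the other c subunit genes were still not called.

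The ATPase inhibitor gene Atpif1, whose protein blocks ATP hydrolysis by ATP synthase, is not a member by its symbol, and it rose in breast by 0.88 ± 0.11, adjusted p = 7.12e-08. Cyc1, the cytochrome c1 gene of complex III, changed by -0.86 ± 0.09, adjusted p = 8.4e-09.

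The only called rise among the members in breast was that of Cox7c, a small complex IV subunit, which lay between 5.07 and 7.59 in the control arrays (median 7.09) and between 6.98 and 7.88 in the tumor-bearing arrays (median 7.43). Its change was 0.47 ± 0.08, adjusted p = 7.3e-06, higher in 23 of 25 pairs. The probe set used, with a mean breast level of 7.22, is one that matches several transcripts. The other probe set changed by 0.64 at a mean level of 4.63, closer to the floor. Across the members' further probe sets above the median level, 70 of 71 had the same sign in breast as the probe set used. In the other tissues, where changes were smaller, 59 of 68 did so in blood, 53 of 65 in spleen, 49 of 65 in thymus and 45 of 69 in liver.

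**Figure D2:**
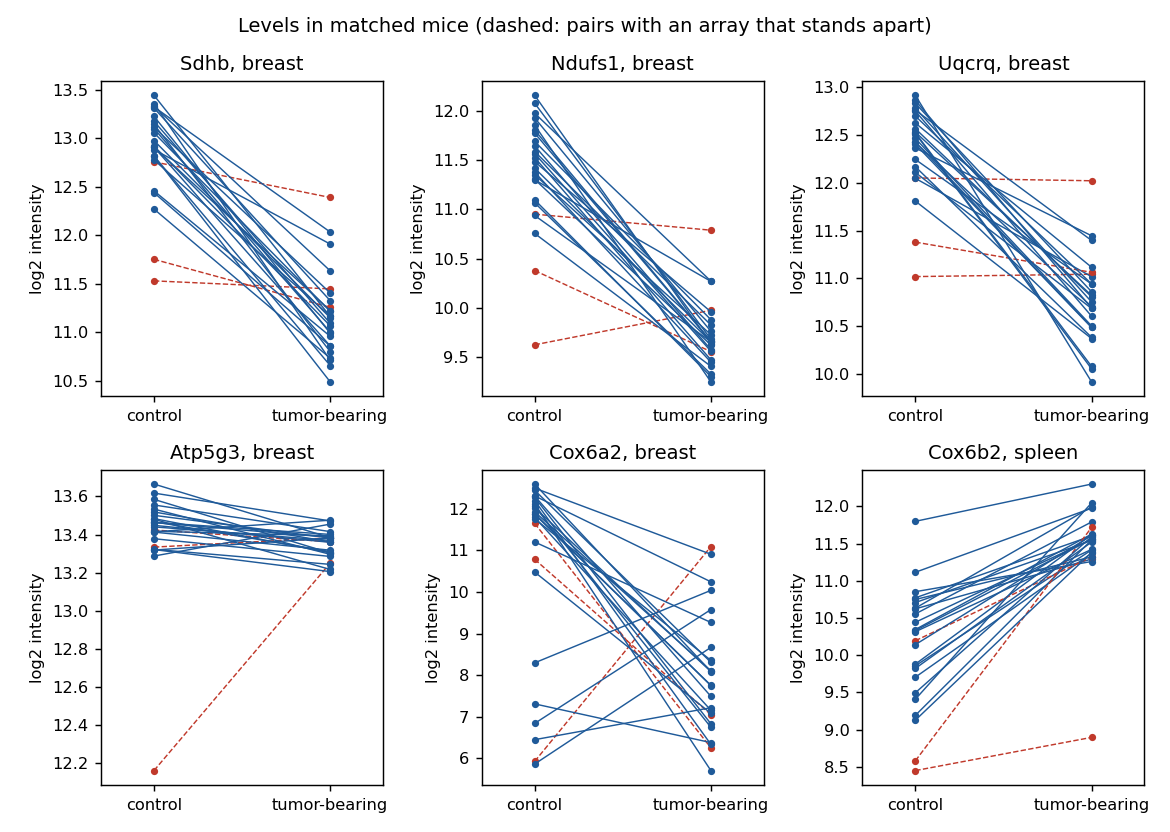
Log2 intensity of Sdhb, Ndufs1, Uqcrq, Atp5g3 and Cox6a2 in breast and of Cox6b2 in spleen, with a line joining the control and tumor-bearing mouse of each of the 25 pairs. Solid blue lines are pairs without an outlying array and dashed red lines are pairs with one; the Sdhb median is 12.92 in controls and 11.15 in tumor-bearing mice, and Cox6a2 spreads from 5.86 to 12.60 in controls.

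Several complex IV subunits have a second, tissue-restricted form. Cox6a2, the heart and skeletal muscle form of subunit 6a, lay between 5.86 and 12.60 in the control arrays (median 11.87) and between 5.70 and 11.09 in the tumor-bearing arrays (median 7.75). Its change was -2.66 ± 0.59, adjusted p = 0.000299, lower in 20 of 25 pairs, and its SE was the largest of the members in breast. Skeletal muscle markers moved with it: 15 of 15 were lower in tumor-bearing breast, with array means of 5.46 to 13.66 in controls and 4.81 to 12.07 in tumor-bearing mice. The 6 control arrays with a muscle marker mean under 10 had Cox6a2 levels of 5.86 to 8.30, and the 19 other control arrays had 10.48 to 12.60. Likewise, the 19 tumor-bearing arrays under 10 had 5.70 to 8.67 and the 6 others 9.27 to 11.09. In the first of the 2 series of sample identifiers (10 pairs) the change of Cox6a2 was -1.70 with an adjusted p of 0.232.

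The widely used form Cox6a1 changed by -0.23 ± 0.05, adjusted p = 0.000665. Cox4i1 changed by -0.31 ± 0.05, adjusted p = 9.1e-06 and its hypoxia-linked partner Cox4i2 by -0.18 ± 0.06, adjusted p = 0.0112. The Cox4i2 call in limma was lost with the Gapdh ratio as a covariate (-0.17, adjusted p = 0.104) and in the first identifier series (-0.08, adjusted p = 0.526). Cox6b1 changed by -0.42 ± 0.06, adjusted p = 2.59e-06 and Cox6b2, described as the testis form, by -0.56 ± 0.09, adjusted p = 3.8e-06. Cox7a2 changed by -0.37 ± 0.06, adjusted p = 3.99e-06, whereas Cox7a2l, which joins complexes III and IV into supercomplexes, did not pass the test with all pairs (-0.16 ± 0.07, adjusted p = 0.0603) and did without the outlying pairs (-0.23 ± 0.05). Ndufa4, a complex IV subunit despite its name, changed by -0.62 ± 0.08, adjusted p = 1.1e-07, and Ndufa4l2, its hypoxia-induced relative, by 0.04 ± 0.09, adjusted p = 0.712. Cox7b2 and Cox8c were not called in any of the 5 tissues, and Cox7b2 lay between the floor and 4.03 in breast controls.

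Markers of several cell types moved with the breast falls. All 9 adipocyte markers were lower (median -3.42), and their array means were 10.04 to 12.65 in controls and 6.96 to 11.48 in tumor-bearing mice. Of 9 brown fat markers 8 were lower (median -3.78), with array means of 7.66 to 10.34 and 4.99 to 9.60, and 1 brown fat marker had a median at the floor. That list includes Cox7a1 (-3.78 ± 0.34) and Cox8b (-4.27 ± 0.43), the complex IV subunit genes left out of the members. It is therefore not separate from the respiratory chain. Luminal epithelial markers were higher for 9 of 10, and all 15 cell cycle genes rose. The log2 ratio of the 3' to the 5' Gapdh probe set, a measure of RNA integrity, was lower by 0.76 ± 0.17 and in 21 of 25 pairs. With that ratio as a covariate 82 members fell, where 24.9% of all genes did. A second choice left out 5 pairs in which an array's muscle or brown fat marker mean lay more than 3 above the tissue median. It gave 82 lower members (29.1% of all genes). The 5 arrays were controls picked out by their muscle markers. Most of the 19 control arrays with a muscle marker mean of 10 or more stayed in, so this choice cannot show what muscle or brown fat contributes. The part of cell mix in the result was not tested.

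Other mitochondrial genes fell beside the members. All 16 genes of pyruvate dehydrogenase and the citric acid cycle fell (median -1.37), led by the ketoglutarate dehydrogenase gene Ogdh at -1.73 ± 0.13 (adjusted p = 3.45e-11, lower in 25 of 25 pairs). Of 36 assembly and partner factors 32 fell and 2 rose (median -0.58), of 13 inner membrane carriers 10 fell and 1 rose (-0.91), and of 76 mitochondrial ribosome genes 62 fell and 3 rose (-0.47). Among 22 regulators of mitochondrial biogenesis 12 fell and 5 rose. The coactivator gene Ppargc1b changed by -2.56 ± 0.27, adjusted p = 4.6e-09, while its relative Ppargc1a changed by 0.26 ± 0.16, adjusted p = 0.151. Of 17 glycolysis genes 4 rose and 8 fell, with a median of -0.18. Without the outlying pairs all 9 adipocyte markers, 8 of 9 brown fat markers, all 16 citric acid cycle genes and 65 of 76 mitochondrial ribosome genes were lower in breast.

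In liver, the members were slightly lower in tumor-bearing mice once outlying arrays were left out, and hardly any was called with them. Over all 25 pairs 1 member fell, where 2.28% of all genes did, and no member rose, where 7.89% did. At an unadjusted p under 0.05 in limma 1 member was higher and 1 lower, where 20.2% of all genes passed in either direction. The fall was in Ndufs4, an accessory subunit of the NADH-oxidising arm of complex I, which lay between 10.04 and 11.10 in the control arrays (median 10.89) and between 9.33 and 10.85 in the tumor-bearing arrays (median 10.64). The lowest values were those of pairs with an outlying array, and the groups overlapped. The change was -0.24 ± 0.08, adjusted p = 0.0447, lower in 22 of 25 pairs. This call was lost when genes under the median level were left out (adjusted p = 0.0558) and with the mean of all probe sets (-0.12, adjusted p = 0.187). Without the 5 outlying pairs 73 of 92 members fell and none rose, where 18.9% of all genes fell and 18.6% rose. At an unadjusted p under 0.05 in limma 78 members were lower and 1 higher, where 44.4% of all genes passed in either direction. The member median was then -0.15, against -0.03 for other genes in the top 10% of liver levels, of which 39.8% fell. Leaving out pair 2 alone, with all other pairs kept, gave 40 lower members, where 7.68% of all genes were lower.

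Single pairs show how far the outlying arrays reach. In each of the 20 liver pairs without an outlying array, the median change of the 92 genes was below 0, between -0.26 and -0.08. In pair 2 it was 4.93, and its control array had a member median level of 6.75 where the tissue median was 12.1. In pair 8 it was 0.63, in pair 9 -0.20, in pair 15 -0.50 and in pair 17 -1.003. Within the 2 series of sample identifiers, without outlying pairs, 61 members fell in the first (7 pairs) and 62 in the second (13 pairs). Of all genes 10.1% and 13.3% fell there. With quantile normalization of the remaining arrays 67 members fell and 1 rose, where 19.4% and 19.2% of all genes did.

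**Figure D3:**
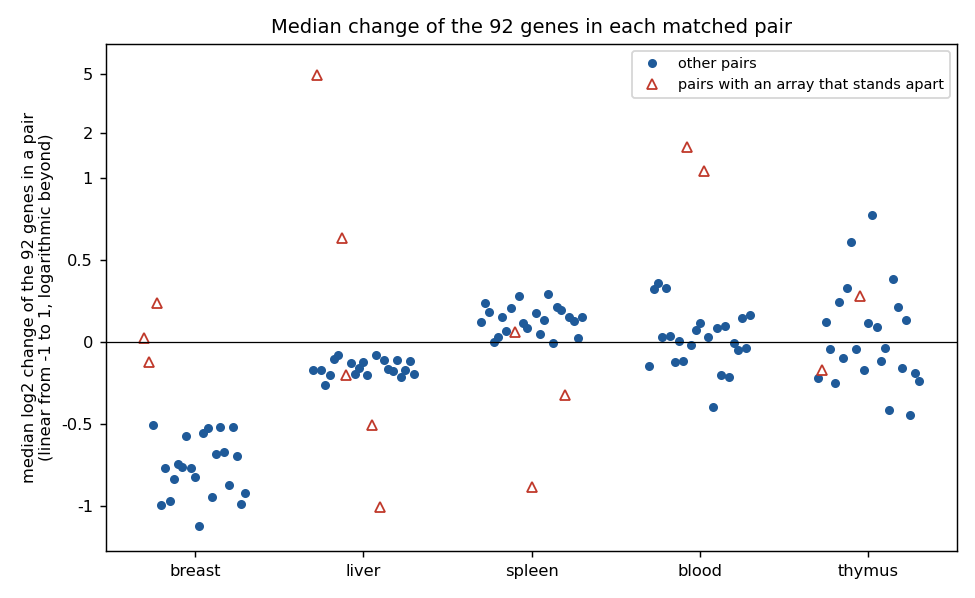
Median log2 change of the 92 genes in each of the 25 matched pairs of each tissue; the axis is linear between -1 and 1 and logarithmic beyond. Filled circles are pairs without an outlying array and open triangles are pairs with one. Breast circles lie between -1.36 and -0.50, liver circles between -0.26 and -0.08, and spleen circles between -0.01 and 0.29, while thymus circles spread on both sides of 0.

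The liver falls were small, between -0.45 and 0.11 over the 92 members. The 4 largest, chosen after their values were seen, were Ndufa5 (-0.45 ± 0.04, adjusted p = 9.01e-09, lower in 20 of 20 pairs), Ndufa12 (-0.43 ± 0.03, adjusted p = 6.21e-10, lower in 20 of 20 pairs), Sdhb (-0.36 ± 0.03, adjusted p = 2.45e-09, lower in 20 of 20 pairs) and Uqcrc1 (-0.35 ± 0.03, adjusted p = 1.87e-08, lower in 20 of 20 pairs). The first 2 are accessory subunits of complex I. Over all pairs the same genes were not called, with Sdhb at -0.12 ± 0.26, adjusted p = 0.824. The other succinate dehydrogenase genes, again without outlying pairs, were at -0.19 ± 0.02 for Sdha, -0.21 ± 0.02 for Sdhc and -0.17 ± 0.02 for Sdhd, all called. All 17 ATP synthase subunits, the c ring genes included, were called lower, with medians of -0.20 in F1 and -0.13 in the stator and membrane part. None of the 7 complex IV isoforms and paralogs was called. Uqcrq, among the largest falls in breast, was at 0.00 ± 0.02, adjusted p = 0.945, lower in 13 of 20 pairs and was not called.

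Immune markers moved with these falls. Without outlying pairs 2 of 9 hepatocyte markers were higher and 2 lower, with array means of 13.34 to 13.69 in controls and 13.10 to 13.87 in tumor-bearing mice. All 11 neutrophil markers were higher, with array means of 5.58 to 6.10 in controls and 7.20 to 10.96 in tumor-bearing mice. Of 9 macrophage markers 7 were higher, and so were all 8 endothelial markers. The part of these cells in the result was not tested. Of the citric acid cycle list 13 of 16 genes fell, and Cs changed by -0.42 ± 0.04, adjusted p = 1.44e-07. Of 76 mitochondrial ribosome genes 48 fell and none rose, and Tfam, which packages mitochondrial DNA, changed by -0.15 ± 0.03, adjusted p = 0.000122. Esrrg, a nuclear receptor known for activating oxidative metabolism, was the most clearly changed of the 22 biogenesis regulators, at -1.61 ± 0.16 over all pairs (adjusted p = 1.22e-08, lower in 25 of 25 pairs). The only other regulator called over all pairs, Pprc1, rose, at 0.55 ± 0.15 (adjusted p = 0.0175 in limma, higher in 18 of 25 pairs).

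In spleen, more members rose than fell. Over all pairs 26 were higher and 6 lower, where 22.4% of all genes were higher and 18.3% lower, and the member median was 0.06. Without the 3 outlying pairs 61 were higher and 7 lower (28.9% and 26.4% of all genes), and the median was 0.13. Of other genes in the top 10% of spleen levels, 34.9% were higher and 21.3% lower over all pairs (median 0.03), a larger share higher than the members' 28.3%. Among the remaining 22 pairs 37.2% of these were higher and 39.5% lower (median -0.01), against 66.3% and 7.61% of the members. Without pair 13 alone, 52 members were higher, where 24.8% of all genes were. The rises without outlying pairs lay in complexes I, III, IV and ATP synthase: of the 17 ATP synthase genes 15 rose, of the 28 complex I accessory subunits 22, of the 10 widely used complex IV subunits 8 and of the 8 complex III genes 5. Of the 4 complex II subunits 1 rose, and of its 4 assembly factors none rose in limma and 2 fell. The Gapdh 3' to 5' log2 ratio was higher by 0.12 ± 0.05 in spleen of tumor-bearing mice. With it as a covariate 31 members were higher and 5 lower, where 20.9% and 17.98% of all genes were. The part of this ratio in the result was not tested. Within the series of sample identifiers, without outlying pairs, 52 members rose in the first (10 pairs) and 43 in the second (12 pairs). Of all genes 22% and 24.7% rose there. With the outlying pairs the second (15 pairs) gave 3 members higher (3.26%), a smaller share than the 16.1% of all genes.

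Cox6b2 stood apart from the others in size. It lay between 8.45 and 11.80 in the control arrays (median 10.32) and between 8.90 and 12.30 in the tumor-bearing arrays (median 11.56). Each tumor-bearing mouse was above its matched control, and the lowest values in both groups came from outlying pairs. Without these, 1 control value, 11.80, lay within the tumor-bearing range. The change was 1.37 ± 0.14, adjusted p = 1.09e-08, higher in 25 of 25 pairs, a 2.58-fold rise. In blood cells Cox6b2 was at 0.45 ± 0.16, adjusted p = 0.0665 with all pairs and at 0.35 ± 0.07, adjusted p = 0.000804, higher in 20 of 23 pairs without the outlying pairs, and in breast it fell. In liver it was at 0.03 ± 0.10, adjusted p = 0.895 and in thymus at -0.10 ± 0.11, adjusted p = 0.995. Erythroid markers moved with it in spleen, with 8 of 9 higher over all pairs and 9 of 9 without outlying pairs, and their array means were then 9.86 to 12.12 in controls and 11.73 to 12.12 in tumor-bearing mice. In blood 4 of 9 erythroid markers were higher over all pairs. The part of erythroid cells was not tested.

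The next rises were in Ndufb9 (0.32 ± 0.06, adjusted p = 0.000181, higher in 23 of 25 pairs) and Ndufb1 (0.32 ± 0.06, adjusted p = 5.76e-05, higher in 20 of 25 pairs), both of the membrane arm of complex I, and in Uqcr11 of complex III (0.27 ± 0.08, adjusted p = 0.00725, higher in 23 of 25 pairs). Ndufb9 lay between 11.60 and 13.29 in the control arrays (median 12.04) and between 12.24 and 13.02 in the tumor-bearing arrays (median 12.38). The 2 highest control values and the highest tumor-bearing value were from outlying pairs, and the remaining groups overlapped in part. Succinate dehydrogenase did not rise as a set. Sdhd was called higher (0.18 ± 0.07, adjusted p = 0.0475), while Sdha (-0.08 ± 0.06, adjusted p = 0.26), Sdhb (-0.05 ± 0.08, adjusted p = 0.66) and Sdhc (-0.08 ± 0.09, adjusted p = 0.49) were not called, with or without the outlying pairs.

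The falls in spleen were in Cox7a2l (-0.28 ± 0.05, adjusted p = 1.39e-05, lower in 24 of 25 pairs), Sdhaf1 (-0.27 ± 0.05, adjusted p = 9.42e-05, lower in 22 of 25 pairs), Cox7c (-0.25 ± 0.08, adjusted p = 0.00984, lower in 23 of 25 pairs) and Sdhaf3 (-0.18 ± 0.05, adjusted p = 0.01, lower in 18 of 25 pairs). The Cox7c call was lost with the mean of all probe sets (-0.24, adjusted p = 0.0544) and without probe sets shared between transcripts (-0.23, adjusted p = 0.152). The Sdhaf3 call was lost without the pairing (adjusted p = 0.0745) and with the Gapdh ratio as a covariate (-0.13, adjusted p = 0.0929). It was also lost in the first identifier series (-0.05, adjusted p = 0.558) and under quantile normalization without outlying pairs (-0.07, adjusted p = 0.0838). The Uqcr11 call was lost without the pairing (adjusted p = 0.0944). In the second identifier series with all its pairs, 3 limma calls were lost. These were Ndufb9 (0.23, adjusted p = 0.0825), Uqcr11 (0.15, adjusted p = 0.365) and Cox7c (-0.25, adjusted p = 0.156). Sdhaf1 and Sdhaf3 both help to insert iron-sulfur clusters into Sdhb. Ndufaf8 and the c subunit gene Atp5g2 also fell. In the other direction from these, Atpif1 rose by 0.49 ± 0.09, adjusted p = 9.51e-05.

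**Figure D4:**
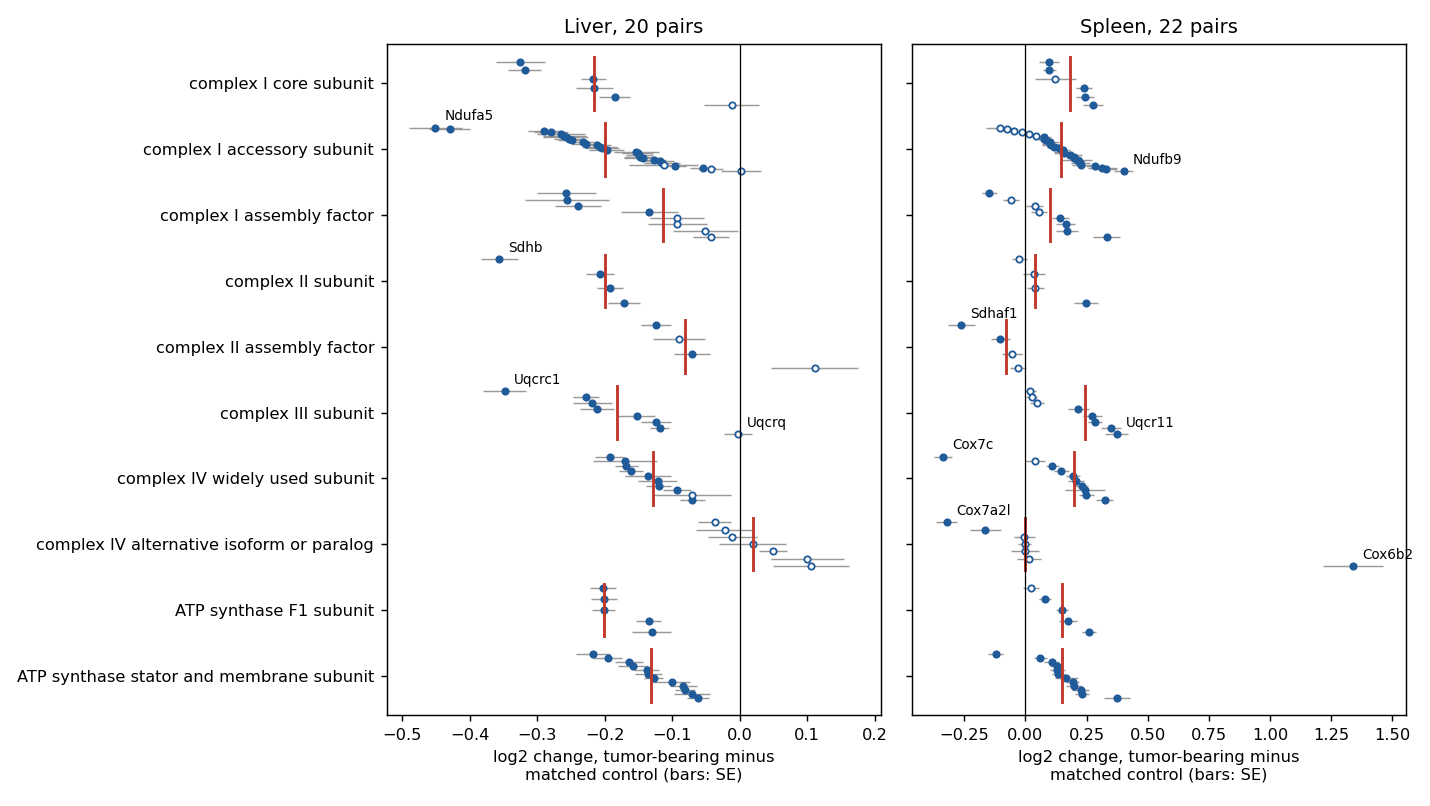
Log2 change of the 92 genes by role in liver (20 pairs) and spleen (22 pairs) without the outlying pairs, with the SE over pairs; the 2 panels have different axes. Filled points passed the adjusted p of 0.05 and red bars are role medians, which lie below 0 in liver for every role but the complex IV isoforms, and above 0 in spleen for every role but those isoforms and the complex II assembly factors.

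Other gene groups moved in spleen as well, here without the outlying pairs. All 15 cell cycle genes rose, with array means of 9.49 to 11.89 in controls and 11.36 to 12.00 in tumor-bearing mice without outlying pairs. All 11 neutrophil markers rose and all 7 B cell markers were lower. Of 76 mitochondrial ribosome genes 58 rose and 6 fell, of 16 citric acid cycle genes 7 rose and 1 fell, among them the citrate synthase gene Cs at 0.22 ± 0.03, adjusted p = 2.37e-07. Of 22 biogenesis regulators 3 rose and 10 fell. Tfam changed by -0.35 ± 0.04, adjusted p = 7e-09 and Ppargc1b by -0.38 ± 0.04, adjusted p = 4.61e-08.

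In blood cells the members split. Over all pairs 13 were higher, where 8.66% of all genes were, and 1 was lower, where 4.27% were. Of other genes in the top 10% of blood levels 26.7% were higher (median 0.18), a larger share than the members' 14.1% (median 0.09). The largest rises were in the complex I subunits Ndufb6 (0.61 ± 0.11, adjusted p = 0.000199, higher in 21 of 25 pairs) and Ndufb11 (0.59 ± 0.17, adjusted p = 0.0173, higher in 23 of 25 pairs), in Atp5pb, the stator subunit b of ATP synthase (0.56 ± 0.17, adjusted p = 0.0302, higher in 20 of 25 pairs), and in Uqcrq (0.53 ± 0.11, adjusted p = 0.00134, higher in 21 of 25 pairs). Ndufb6 lay between 5.68 and 8.83 in the control arrays (median 7.23) and between 6.98 and 8.60 in the tumor-bearing arrays (median 7.93), with wide overlap between the groups. The Uqcrq call was lost with another probe set, at 0.03 when sets shared between similar transcripts were left out. With quantile normalization the calls of Atp5pb (0.38, adjusted p = 0.0945), Ndufb11 (0.42, adjusted p = 0.109) and Sdhaf3 (-0.22, adjusted p = 0.0588) were lost, and that of Atp5pb also without the pairing (adjusted p = 0.058). The Sdhaf3 change, the only called fall, was -0.24 ± 0.07, adjusted p = 0.0189, lower in 20 of 25 pairs, and in the first identifier series it was -0.09 (adjusted p = 0.972). Over the 23 pairs with no outlying array Ndufb6 was at 0.54 ± 0.11, Ndufb11 at 0.43 ± 0.07, Atp5pb at 0.34 ± 0.08, Uqcrq at 0.43 ± 0.09 and Sdhaf3 at -0.26 ± 0.07, all called.

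Without the outlying pairs 10 and 14, whose member medians were 1.61 and 1.11, 21 members were higher and 10 lower in blood (10.3% and 11.5% of all genes), with a median of -0.01. Of other genes in the top 10% of blood levels 31.3% were then higher and 22.3% lower, against 22.8% and 10.9% of the members. Those lower included the c subunit genes Atp5g2 (-0.38 ± 0.13) and Atp5g3 (-0.42 ± 0.14) and Ndufs4 (-0.39 ± 0.06). Those higher included Sdhd (0.38 ± 0.13), Ndufs1 (0.37 ± 0.10) and Cox6a1 (0.37 ± 0.05). The 2 identifier series differed in their calls without the outlying pairs. The first series of sample identifiers (9 pairs) called no member in limma, where 2.31% of all genes were called higher and 0.517% lower. At an unadjusted p under 0.05 in limma 14 members were higher and 3 lower there, where 15.7% of all genes passed in either direction. The second series (14 pairs) called 15 members higher and 5 lower, where 7.63% and 8.89% of all genes were. Of 11 neutrophil markers 8 were higher, with array means of 6.06 to 7.61 in controls and 8.08 to 10.83 in tumor-bearing mice, and 6 of 7 B cell markers were lower. The part of these cells in the result was not tested.

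In thymus no member was called in limma, with or without the outlying pairs, and none had an unadjusted p under 0.05. Of all genes 0.011% were called higher and 0% lower, and 4.16% had an unadjusted p under 0.05. Member changes over all pairs ran from -0.10 to 0.56, the latter in Cox6a2 (0.56 ± 0.42, adjusted p = 0.995). Skeletal muscle markers varied between thymus arrays, with means of 5.63 to 11.78 in controls and 6.16 to 12.83 in tumor-bearing mice.

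The change itself differed between tissues for most members. A limma F test over the 5 within-pair changes, with the pair number as a block, called 72 of 92 members and 59.9% of all genes. The change in breast was below that in liver for 63 members (23.2% of all genes), in spleen for 83 (29.8%), in blood for 74 (25.6%) and in thymus for 76 (22.8%), and above it for 1 member in each case. Without the outlying pairs these counts were 79 (31.3%), 84 (33.6%), 78 (30.8%) and 81 (26%), and the F test called 85 members and 67.1% of all genes. Without breast the F test called 8 members, where 30.2% of all genes were called. Without breast and the outlying pairs (15 linked pairs) it called 59 members, where 42.2% of all genes were called. Between liver and spleen, the liver change was below that of spleen for 3 members over all pairs (9.15% of all genes) and above it for 1 (10.4%). Without outlying pairs it was below for 74 members (26.2% of all genes) and above for 3 (24%). The liver change was then also below that in blood for 38 members (11.3%). The spleen change was above that in blood for 24 members (15.9%) and below it for 6 (13.5%), and above that in thymus for 27 (15.8%) and below it for 2 (13%).

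Calls in several tissues depended on the outlying pairs. Over all pairs 7 members (7.61%) were called in 3 of the 5 tissues, where 10.2% of all genes were called in at least 3. When these pairs were left out 68 members (73.9%) and 30.7% of all genes were. Of these, Cox6a1, Cox7a2, Ndufb1, Ndufb8, Sdhd and Uqcrq fell in breast and rose in spleen and blood, and Sdhaf3 fell in all 3, with the losses of its spleen and blood calls given above. For Ndufb8 the changes were -1.02 ± 0.10 in breast, 0.19 ± 0.07 in spleen and 0.39 ± 0.11 in blood. For Sdhd they were -1.20 ± 0.10, 0.18 ± 0.07 and 0.47 ± 0.15. Over all pairs 24 members (26.1%) and 6.66% of all genes fell in breast and rose in spleen, and 13 members (14.1%) and 2.69% of all genes fell in breast and rose in blood. Without the outlying pairs, 71 members (77.2%) and 10.5% of all genes were lower in both breast and liver, and 55 members (59.8%) and 3.47% of all genes were also higher in spleen. Atp5g3, Cox7b2, Cox8c and Ndufa4l2 were called in no tissue over all pairs.

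**Figure D5:**
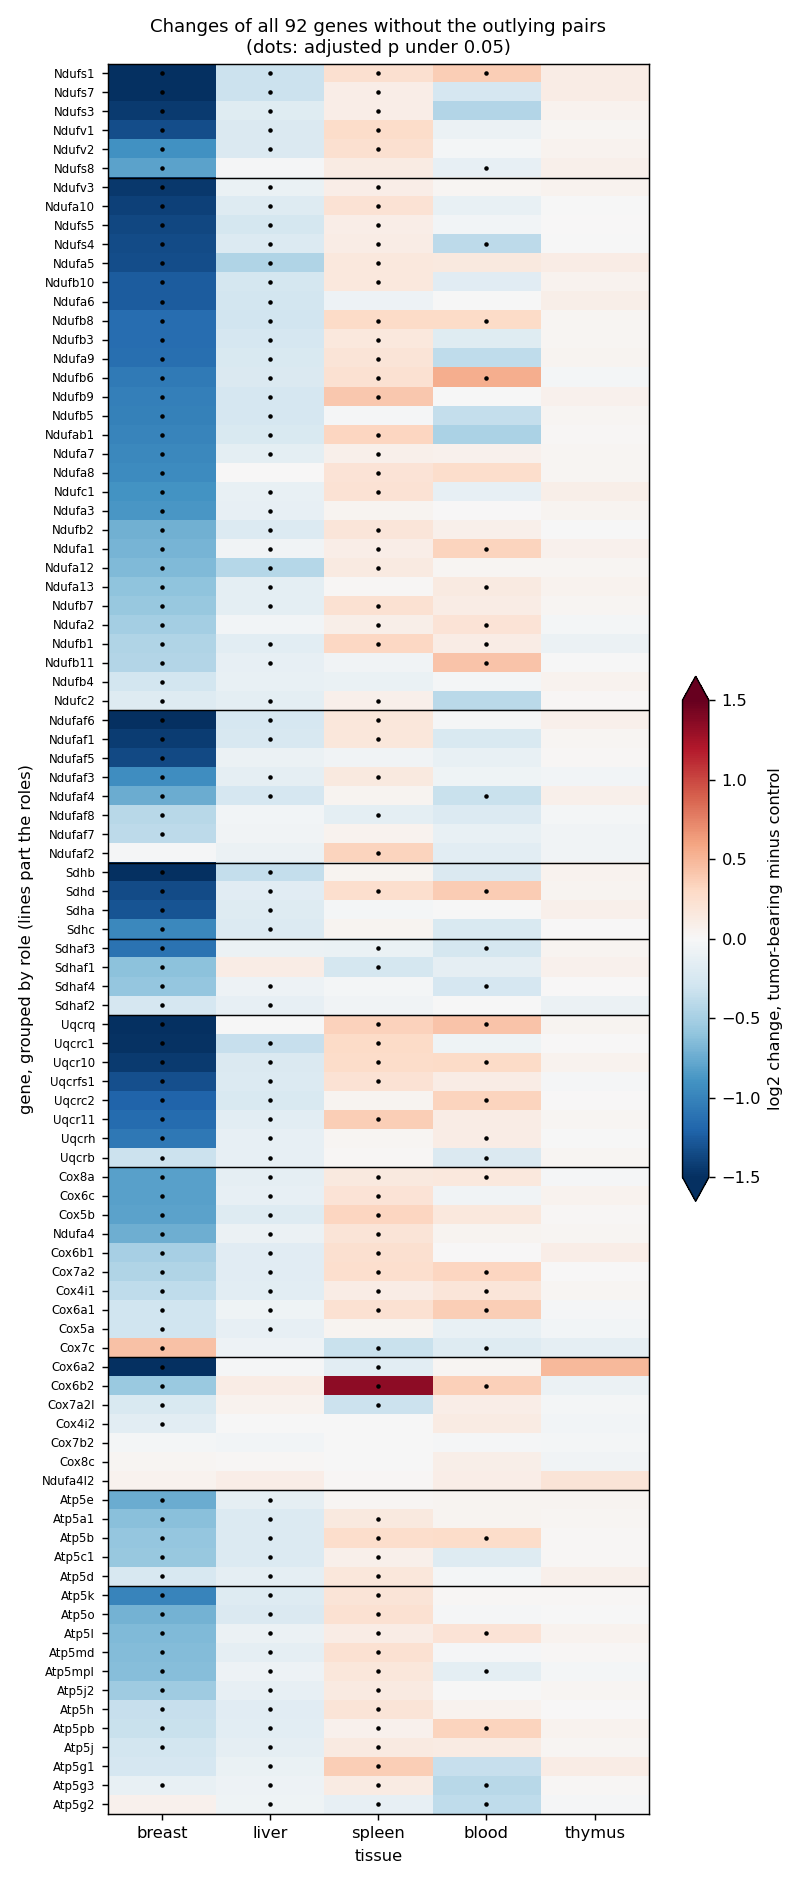
Log2 change of each of the 92 genes (rows, grouped by role and ordered by their change in breast) in the 5 tissues (columns) without the outlying pairs; blue is lower and red higher in tumor-bearing mice, with the colour scale ending at -1.5 and 1.5. Dots mark an adjusted p under 0.05. The breast column is blue apart from Cox7c and a few pale rows, the liver column pale blue and the spleen column mostly pale red, with Cox6b2 at 1.34.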

How the data were processed

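RNA of 250 tissue samples was measured on Affymetrix arrays with 45101 probe sets. The deposited values are linear intensity per probe set as the authors processed it; the normalization is not given in the sources used here, and array medians differ between tissues, so levels are not compared between tissues. Values were set to a floor at the 5th percentile of all values (11.3) and log2 transformed. Of the probe sets 34958 carry 1 gene symbol, 932 several and 9211 none. Each gene was read from its single-symbol probe set with the highest mean. Symbols were updated through their Entrez numbers.

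Within-pair differences (25 per tissue) were tested with limma 3.58.1 in R 4.3.3, with Benjamini-Hochberg adjustment over all 18194 genes of a tissue, and between tissues with an F test and pairwise contrasts with the linked pair number as a block. The pairing is the age and cage match in the labels. Over genes, the median correlation of deviations within pairs was 0.31 in liver, 0.25 in thymus, 0.22 in blood, 0.15 in spleen and 0.08 in breast. An array was outlying when its median correlation with the other arrays of its tissue and group lay more than 3 interquartile ranges below the first quartile of the tissue. The scripts were checked on simulated data.

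The members and gene lists were chosen with earlier results of these data known. Named with full values were, per tissue, up to 4 called rises and 4 called falls of the largest size that went the same way in at least 18 of 25 pairs, the succinate dehydrogenase genes, the isoform sets, the ATPase inhibitor gene, members called in at least 3 tissues, and the list genes with the smallest adjusted p. Alternatives were another normalization, filter, probe set choice and covariate, no replicate block, and pairs left out.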

Additional observations from a re-analysis of the deposited data

Results flagged for a closer look

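The change differed between the 5 tissues for 72 members in limma's F test, where 59.9% of all genes did. The 20 differences that follow are of named genes called in opposite directions in the 2 tissues, so that each passes is fixed by that choice and they are given as a description. Named genes called in the same direction, such as Sdhaf3, are not among them.

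The change in breast minus that in blood was -2.17 for Ndufs1, -2.13 for Uqcrq, -1.67 for Sdhd, -1.55 for Ndufb6 and -1.42 for Ndufb8. For the other members named in blood, this difference was -0.95 for Ndufb11, -0.84 for Atp5pb, -0.81 for Cox7a2, -0.73 for Cox6a1 and -0.56 for Ndufb1.

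The change in breast minus that in spleen was -1.92 for Cox6b2, which fell in breast and rose in spleen, -1.85 for Uqcrq, -1.38 for Sdhd, -1.28 for Uqcr11, -1.22 for Ndufb9 and -1.21 for Ndufb8. It was -0.72 for Ndufb1, -0.56 for Cox7a2 and -0.42 for Cox6a1. Cox7c went the other way, at 0.72: it was called higher in breast and lower in spleen, the latter not with every choice of probe sets.

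Adipocyte, brown fat and muscle markers were lower in tumor-bearing breast and neutrophil markers higher in spleen and blood, as given above, and their part in these differences was not tested.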

How the results depend on the processing

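No named gene that was called changed sign under any alternative tried, but the member median did so in liver and blood. In liver it went from 0.02 to -0.15 without outlying pairs, and in blood from 0.09 to -0.01 without them, -0.03 with quantile normalization and -0.07 with both, where 17 members were higher and 22 lower. In breast 83 members fell with all pairs, 82 with the Gapdh ratio as a covariate and 78 and 79 within the identifier series. Of all genes 32.3%, 24.9%, 20.5% and 28.2% fell there. The number higher was 1 in all settings but that without probe sets named _x or _s, which gave 2. Of all genes 30.0% were higher with all pairs, and without these probe sets 29.6% of the genes tested were. The alternatives with outlying pairs left out in combination with another choice, and those within one identifier series without outlying pairs, were added after seeing the data.

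In liver, the 1 member called lower became 7 with quantile normalization, 0 when genes below the median level were dropped or with the mean of all probe sets, 2 without _x or _s probe sets, and 50 with the Gapdh ratio as a covariate. It became 73 without outlying pairs, 67 with quantile normalization as well, 0 in the first and 61 in the second identifier series, and 61 and 62 in these without outlying pairs. Of the genes tested 2.94% were lower with quantile normalization and 2.36% without genes below the median level. With the mean of all probe sets 3.05% were, and without _x or _s probe sets 2.31%. The shares of all genes called lower were 8.45% with the Gapdh ratio, 18.9% without outlying pairs and 19.4% with quantile normalization as well. They were 0.055% and 11.7% in the 2 identifier series, and 10.1% and 13.3% in these without outlying pairs. Leaving out single pairs with an outlying array gave 0 (pairs 9 and 15) to 40 (pair 2) members called lower. Of all genes 2.31% and 2.00% were lower without pairs 9 and 15, and 7.68% without pair 2. No liver member was called higher, except 1 without outlying pairs under quantile normalization.

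In spleen, the 26 members called higher became 11 without the replicate block, 61 without outlying pairs, 55 with quantile normalization as well, 52 and 3 in the first and second identifier series, and 52 and 43 in these without outlying pairs. Leaving out single pairs with an outlying array gave 23 (pair 9) to 52 (pair 13), where 21.8% and 24.8% of all genes were higher.

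In blood, the 13 members called higher became 8 without the replicate block (8.70%), 7 with quantile normalization (7.61%) and 21 without outlying pairs (22.8%). The shares of all genes were 8.30%, 8.07% and 10.3%. In the first and second identifier series 0 and 1 were higher, where 1.67% and 6.15% of all genes were. In the first without outlying pairs 0 were, where 2.31% of all genes were. The 1 called lower became 4 with quantile normalization, 0 when genes below the median level were dropped, 3 with the mean of all probe sets, 10 without outlying pairs, 22 with quantile normalization as well, 0 in the first identifier series with or without outlying pairs, 5 in the second without them, and 3 (pair 10) to 4 (pair 14) with single outlying pairs left out. The 72 members that differed between tissues (59.9% of all genes) became 8 with breast left out (30.2% of all genes). The causes of these shifts were not tested beyond the samples and genes each alternative leaves out.

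For the named genes, 424 comparisons with an alternative were made, of which 380 kept the direction and the side of the threshold, 38 lost the call and 6 gained it. The number of arrays limits the precision in all tissues, and leave-one-out was run for pairs with an outlying array only. The pairs have no replicate beyond the 25 mice of each group, and nothing but whole-tissue RNA was measured.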
